A study of Caenorhabditis elegans with 14 samples.

Results

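The 9 genes described here are heat-inducible chaperone genes of Caenorhabditis elegans, taken from 20535 protein-coding genes with a row in the small RNA count tables. Of these, 6 are the small heat shock protein genes hsp-16.1, hsp-16.2, hsp-16.11, hsp-16.41, hsp-16.48 and hsp-16.49, and 3 belong to the hsp-70 group, namely hsp-70 itself, F44E5.4 and F44E5.5. Members were found by locus or sequence name, copies were kept apart and also summed, and both strands were read in all 14 libraries. They were chosen by their measured read counts in these same libraries, and which comparison was used for that is not recorded, so their levels and differences are a description and no support is drawn from them.

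HSP-70 class proteins bind unfolded polypeptides and use ATP to help them refold. The HSP-16 proteins are small alpha-crystallin type chaperones that hold unfolding proteins in solution without using ATP. In worms both kinds of gene are nearly silent at ordinary growth temperatures and are switched on by heat through the transcription factor HSF-1, which is why the hsp-16.2 and hsp-70 promoters are widely used as stress reporters. Small RNAs antisense to a worm gene are typically made by RNA-dependent RNA polymerases and carry a 5′ triphosphate, whereas short sense reads can be pieces of the messenger RNA.

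The study sequenced 17 to 30 nt RNAs of late young adult worms kept at 20 °C on OP50 bacteria. It compared the N2 strain (called control) with mutants of piRNA factors: tofu-6, pics-1 and erh-2, whose products belong to the PICS complex, tost-1, whose product binds that complex, and prg-1, which encodes the Argonaute that carries piRNAs. The untreated set holds 6 libraries, 1 each of control, erh-2(ust101), pics-1(tm2417), tofu-6(ust94), tost-1(ust103) and prg-1(n4503). The TDP2 set holds 8 libraries, 1 each of control, pics-1(tm2417), erh-2(ust101) and prg-1(n4503) and 1 of each tofu-6 allele it20, ust94, ust95 and yt2. Here the RNA was dephosphorylated with alkaline phosphatase and then treated with the decapping enzyme TDP2, so that RNAs with 5′ caps can enter the library. How far RNAs with other 5′ ends enter it was not tested. The 4 tofu-6 alleles are the only replicates and are different mutations, the labels do not say that any libraries came from separate cultures, and p-values therefore measure only the spread between these libraries.

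Libraries held 6918136 to 13469619 reads assigned to annotated genes, and RPM below means reads per 1000000 of those. Intervals in brackets after a ratio are exact 95% intervals and cover counting error only. Sense reads of protein-coding genes made up 7.98% of assigned reads in the untreated control, 12.19% in erh-2, 13.7% in pics-1, 13.6% in tofu-6, 11% in tost-1 and 6.77% in prg-1. The summed sense level of 6 yolk protein genes, which mark the adult intestine, was likewise higher in the mutants other than prg-1, at 7030 RPM in the untreated control, 15700 to 16100 RPM in the 3 PICS mutants (erh-2, pics-1 and tofu-6), 13200 RPM in tost-1 and 5720 RPM in prg-1. A list of 17 oocyte and early embryo genes summed to 880 RPM in the untreated control, 1700 to 1860 RPM in the 3 PICS mutants, 1630 RPM in tost-1 and 693 RPM in prg-1, with every gene of both lists read in every library. Sperm genes stood the other way, with 30 of 32 read and 21.9 RPM in the untreated control, 31 and 49.3 RPM in prg-1, 29 and 8.32 RPM in tofu-6, 17 and 2.65 RPM in pics-1, 8 and 1.32 RPM in erh-2 and 10 and 2.46 RPM in tost-1. In whole worms fewer cells of a type and less RNA per cell cannot be told apart, and the part of these shifts in the results below was not tested.

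The genes lie in pairs. In the WBcel235 annotation F44E5.4 (II, 11757107 to 11759311, minus strand) and F44E5.5 (II, 11759662 to 11761861, plus strand) are transcribed away from each other with 350 bases between them. On chromosome V hsp-16.2 (1804334 to 1804957, minus) and hsp-16.41 (1805178 to 1805875, plus) are separated by 220 bases. A second cluster on V holds hsp-16.1 (9087293 to 9087782, minus) and hsp-16.48 (9088131 to 9088617, plus), 348 bases apart, followed by hsp-16.49 (9089280 to 9089766, minus) and hsp-16.11 (9090077 to 9090604, plus), 310 bases apart. That cluster is an inverted repeat of near-identical genes, and the annotation gives the sequence names T27E4.2 (hsp-16.11 here) and T27E4.9 (hsp-16.49 here) the names of their copies hsp-16.1 and hsp-16.48. How reads with several matches were assigned is not given in the sources used here, so values of single copies, F44E5.4 and F44E5.5 included, are uncertain and the sums are the firmer readout. The hsp-70 gene (C12C8.1) stands alone on chromosome I and overlaps uggt-2 on the other strand, a gene with 25 sense and 46 antisense reads over the 14 libraries together.

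In untreated libraries the sense reads of all 9 genes were few in control, prg-1 and tost-1 (0 to 50 per gene) and many in the PICS mutants erh-2, pics-1 and tofu-6 (127 to 1969 per gene). Summed over the 9 genes they came to 40 reads in control, 38 in prg-1 and 138 in tost-1, against 4670 in erh-2, 4325 in pics-1 and 5840 in tofu-6. In RPM this was 5.66, 3.74 and 19.9 against 558, 410 and 496. With 1 library per strain these differences have no replicate check.

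**Figure D1:**
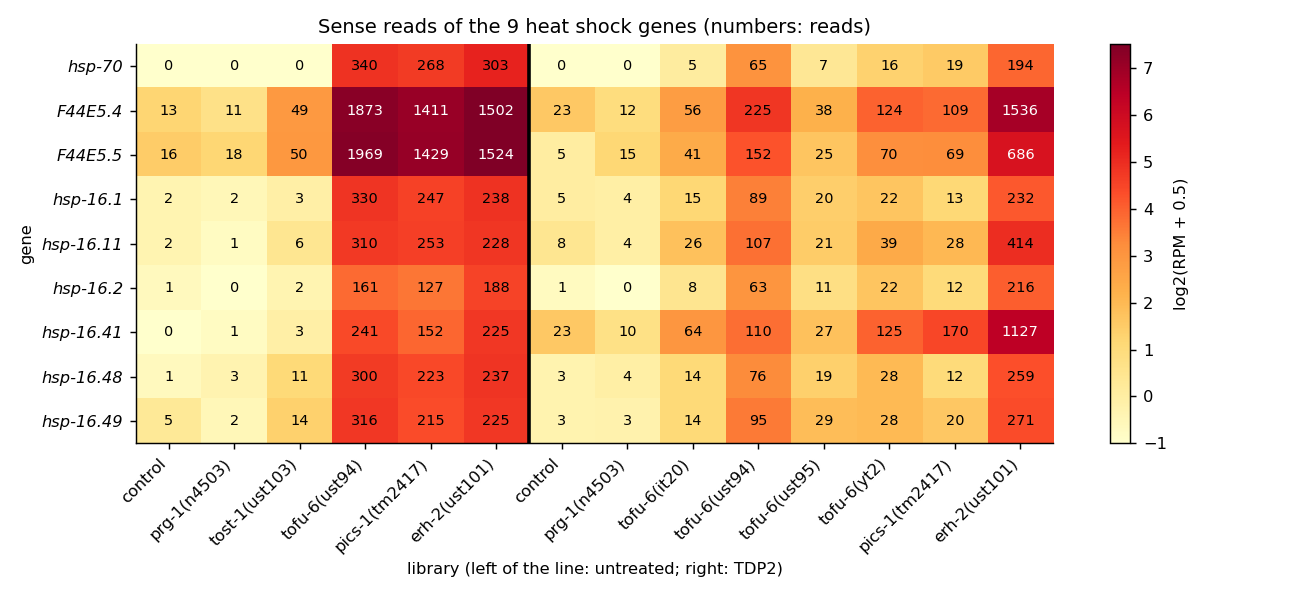
Sense reads of each of the 9 genes (rows) in each of the 14 libraries (columns), coloured by log2(RPM + 0.5), with the read count printed in each cell and a line between the untreated and the TDP2 libraries. The untreated tofu-6, pics-1 and erh-2 columns hold 127 to 1969 reads in every row, and the untreated control column holds 0 to 16.

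The hsp-70 group gave most of these reads. F44E5.4 had 13 sense reads in the untreated control, 1502 in erh-2, 1411 in pics-1, 1873 in tofu-6, 49 in tost-1 and 11 in prg-1. Its neighbour F44E5.5 had 16, 1524, 1429, 1969, 50 and 18 in the same order. Both genes encode HSP70 proteins, and their ratios to control were 97.7 (56.9 to 184) and 80.5 (49.4 to 141) in erh-2, 72.7 (42.4 to 137) and 59.8 (36.7 to 105) in pics-1, and 86.5 (50.5 to 163) and 73.9 (45.4 to 130) in tofu-6. The intervals of the 3 mutants overlap one another for both genes. The stand-alone hsp-70 gene, the heat-inducible one of the family most used as a reporter, had 0 reads in the untreated control, prg-1 and tost-1, and 303 in erh-2, 268 in pics-1 and 340 in tofu-6. With the control taken as 3 reads it was at least 85.4-fold higher in erh-2, at least 59.8-fold in pics-1 and at least 68.0-fold in tofu-6.

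The small heat shock protein genes were high in the same libraries. hsp-16.2, the gene of the stress reporter, had 1 read in control, 188 in erh-2, 127 in pics-1, 161 in tofu-6, 2 in tost-1 and 0 in prg-1. Its divergent neighbour hsp-16.41 had 0 in control, 225 in erh-2, 241 in tofu-6, 3 in tost-1, 1 in prg-1 and 14.4 RPM in pics-1, which was at least 63.4-fold higher than control in erh-2, 33.9-fold in pics-1 and 48.2-fold in tofu-6. No library of control, prg-1 or tost-1 came near the other 3 for either gene. Within the inverted repeat hsp-16.1 had 2 reads in control, 238 in erh-2, 247 in pics-1, 330 in tofu-6, 3 in tost-1 and 2 in prg-1, and its copy hsp-16.11 had 2, 228, 253, 310, 6 and 1. The second pair of copies, hsp-16.48 and hsp-16.49, had 1 and 5 reads in control, 237 and 225 in erh-2, 223 and 215 in pics-1, 300 and 316 in tofu-6, 11 and 14 in tost-1 and 3 and 2 in prg-1. Copies of a pair were thus close to each other in every mutant of the 3. Summed, the hsp-16 genes stood at 1.56 RPM in control and 160 RPM in erh-2, 115 in pics-1 and 141 in tofu-6, ratios of 103 (57.4 to 207), 74.1 (41.3 to 149) and 90.5 (50.4 to 182). The hsp-70 group stood at 4.10 RPM in control and 398, 294 and 355 RPM, ratios of 97.0 (67.4 to 145), 71.8 (49.9 to 107) and 86.6 (60.2 to 129). The size of these ratios depended on the scaling: per microRNA read the hsp-16 sum was 45.5, 28.7 and 26.9 times control and the hsp-70 group 42.8, 27.8 and 25.7 times in erh-2, pics-1 and tofu-6, and per sense read of protein-coding genes the hsp-70 group was 63.5, 41.9 and 50.7 times. The order of pics-1 and tofu-6 differed between the scalings.

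Per kilobase of exon the copies lay close together and hsp-70 lay lowest. In untreated tofu-6 the sense levels in RPKM (RPM per kilobase) were 80.0 for F44E5.5, 75.9 for F44E5.4, 63.97 for hsp-16.1, 62.1 for hsp-16.49, 58.96 for hsp-16.48, 55.3 for hsp-16.11, 32.0 for hsp-16.41, 23.7 for hsp-16.2 and 14.03 for hsp-70. In pics-1 and erh-2 F44E5.5, F44E5.4 and hsp-70 kept the same places, first, second and last, with F44E5.5 at 64.8 and 87.1 RPKM and hsp-70 at 12.34 and 17.6 RPKM. The highest sense level among the 9 in the untreated control was 1.64 RPKM, for hsp-16.49.

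Among features with at least 30 reads over the pair of libraries, 9 of 9 members were at least 4-fold higher than control on the sense strand in each PICS mutant. Over all features 2.99% passed that mark upward and 2.43% downward in erh-2, 5.43% and 2.93% in pics-1 and 6.58% and 1.59% in tofu-6. The hsp-16 genes and hsp-70 had 0 to 5 control reads, and F44E5.4 and F44E5.5 had 13 and 16. The minimum of 30 reads was thus met through the mutant library. With 0 to 5 control reads this alone puts a gene near or past 4-fold, so the count is not read as an enrichment over these shares. The median log2 ratio of the 9 genes was 6.59 in erh-2, 6.18 in pics-1 and 6.43 in tofu-6, beside 0.62, 0.79 and 0.77 over all features. By size of the ratio the 9 genes held places between 1 and 10 of 6072 protein-coding sense features in erh-2, between 2 and 14 of 6607 in pics-1 and between 2 and 11 of 6776 in tofu-6. The 3 comparisons share the single control library and are not independent of each other, and the rule that chose the genes may have used any of them.

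In prg-1 and tost-1 the genes stayed far below their levels in the PICS mutants, though in tost-1 both sums lay above control. Only F44E5.5 had 30 reads over the pair in prg-1, where its ratio was 0.784 (0.377 to 1.64), and F44E5.4 and F44E5.5 had them in tost-1, at 3.85 (2.06 to 7.74) and 3.19 (1.79 to 6.01). None of these reached 4-fold, beside 1.47% of features higher and 3.56% lower in prg-1 and 0.601% higher and 1.70% lower in tost-1. By size of the ratio F44E5.4 and F44E5.5 held places 36 and 73 of 5808 protein-coding sense features in tost-1. Their median log2 ratio there was 1.81, beside 0.47 over all features, and both met the 30 reads largely through the tost-1 library. In prg-1 F44E5.5 held place 3105 of 5811. The hsp-16 sum was 3.62-fold (1.82 to 7.85) and the hsp-70 sum 3.49-fold (2.29 to 5.48) the control in tost-1, intervals that lie above 1 but far below those of the other 3 complex mutants. In prg-1 the same sums were 0.57 (0.209 to 1.51) and 0.697 (0.402 to 1.21) of control, not distinguishable from it at this depth.

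**Figure D2:**
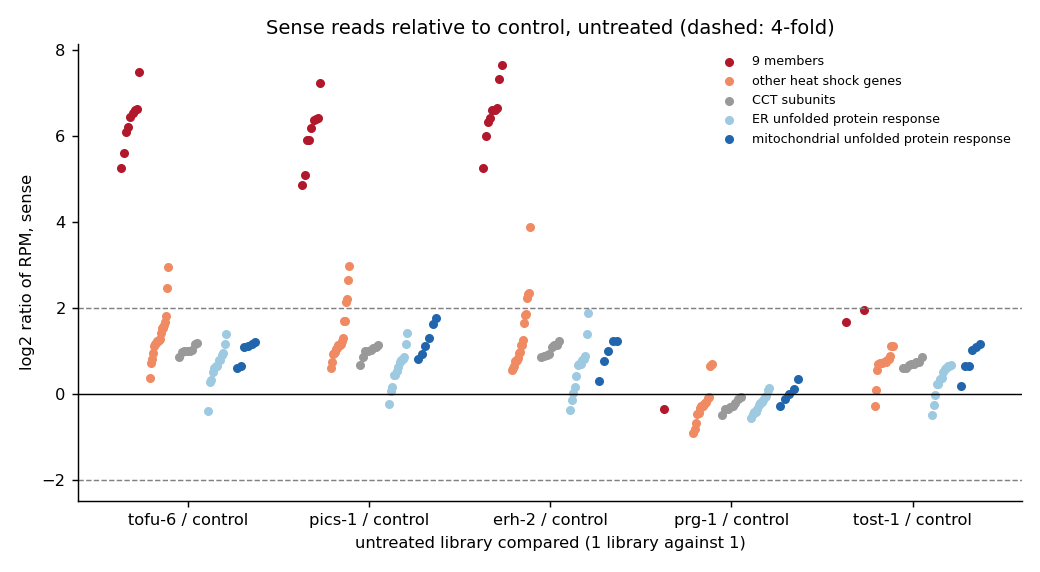
Log2 ratio of sense RPM, mutant over control, in the untreated libraries for the 9 genes and for 4 gene lists, each point a gene with at least 30 reads over the pair, with dashed lines at 4-fold. Points of genes with 0 reads in control are lower bounds. In erh-2, pics-1 and tofu-6 the 9 genes have medians of 6.59, 6.18 and 6.43 and lie above the points of the lists.

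Most other stress genes differed less from control in the same libraries. Of 25 other genes of the cytosolic heat shock response (chaperones, co-chaperones and regulators), 19 had enough reads in the PICS mutants, and 4 of them were at least 4-fold higher in erh-2, 4 in pics-1 and 2 in tofu-6, none lower, with median log2 ratios of 1.14, 1.14 and 1.26. These were aip-1, which encodes a proteasome-associated protein induced by arsenite, with 8 control reads against 140, 94 and 102; unc-23, a BAG domain co-chaperone gene, with 15 against 89, 141 and 137; and, in erh-2 and pics-1, bag-1 with 12 against 67 and 79 and hsp-17 with 11 against 66 and 76. The most read gene of the list, the constitutive HSP70 gene hsp-1, stood at 2.2, 2.44 and 2.26 times control in erh-2, pics-1 and tofu-6, hsp-110 at 3.59, 3.22 and 3.53 and the small heat shock protein gene sip-1 at 1.94, 1.96 and 2.27. Of the CCT chaperonin, endoplasmic reticulum and mitochondrial lists, the most read genes were cct-5, pdi-2 and hsp-60. In erh-2, pics-1 and tofu-6, cct-5 stood at 2.2, 2.15 and 2.29 times control and pdi-2 at 0.898, 1.12 and 1.25. The mitochondrial genes hsp-60 and hsp-6 stood at 1.7, 2.44 and 2.31 and at 1.98, 3.1 and 2.12. The most read oxidative stress gene, skn-1, stood at 1.76, 1.96 and 1.78. In prg-1 and tost-1 0 of 15 other heat shock genes passed 4-fold. None of 8 CCT chaperonin subunits, of 13 endoplasmic reticulum stress genes or of 5 to 6 mitochondrial stress genes with enough reads passed 4-fold in any of the 5 mutants, and the CCT medians were 1.01, 1.01 and 1.0 in the PICS mutants. Of the 8 to 11 oxidative, metal and osmotic stress genes with enough reads, 1 passed it: gpdh-1, a glycerol synthesis gene of the osmotic response, had 0 control reads and 31 in tofu-6, at least 6.2-fold higher. None of 13 muscle, 17 oocyte, 6 yolk or, in prg-1, 5 sperm genes with enough reads passed on the sense strand; cbd-1, an eggshell gene, passed on the antisense strand in tofu-6 (4 to 28 reads). Of 5 to 8 cuticle genes with enough reads the collagen gene sqt-3 was lower in erh-2, pics-1, tofu-6 and tost-1, at 0.125, 0.176, 0.19 and 0.161 of control, and dpy-13 (2 to 52 reads) and sqt-1 (1 to 36) were higher in prg-1. The cuticle list as a whole was not lower in the PICS mutants. Its median log2 ratios were 0.38, 0.94, 1.14, -0.35 and 0.41 in erh-2, pics-1, tofu-6, tost-1 and prg-1. The most read cuticle gene, col-140, stood at 1.41, 2.72, 2.63, 0.783 and 1.22 times control in that order.

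In the TDP2 libraries the 9 genes were again lowest in control and prg-1, and erh-2 stood above every other library. The hsp-16 sum was 43 sense reads in control, 25 in prg-1, 2519 in erh-2, 255 in pics-1, and 141, 540, 127 and 264 in the tofu-6 alleles it20, ust94, ust95 and yt2. The hsp-70 group had 28, 27, 2416, 197, and then 102, 442, 70 and 210 reads in the same order. Every allele of tofu-6 exceeded the control for both sums, and the ust94 allele was the highest of the 4 in both.

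Beside control the erh-2 TDP2 library held 40.5 times (30.0 to 56.1) the hsp-16 RPM and 59.6 times (41.2 to 89.9) the hsp-70 group RPM. In pics-1 the ratios were 6.96 (5.03 to 9.86) and 8.26 (5.54 to 12.8), and their intervals do not reach those of erh-2. In prg-1 they were 0.624 (0.365 to 1.05) and 1.04 (0.587 to 1.82). The 4 tofu-6 alleles averaged 31.8 ± 23.6 RPM for the hsp-16 sum and 24.6 ± 20.6 RPM for the hsp-70 sum (SD, n = 4), beside 4.62 and 3.01 RPM in control. The SD was thus close to the mean, since ust94 reached 65.0 and 53.2 RPM and ust95 13.8 and 7.62 RPM. All 9 genes were above control in RPM in 4 of 4 alleles. In ust95 the ratios of hsp-16.41 (1.19, 0.657 to 2.17) and F44E5.4 (1.67, 0.972 to 2.94) were not above 1 beyond counting error.

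Among single genes hsp-16.41 and F44E5.4 had the most reads in erh-2 and pics-1. The hsp-16.41 counts were 23 in control, 10 in prg-1, 1127 in erh-2, 170 in pics-1, and 64, 110, 27 and 125 in the tofu-6 alleles in the order just given. The F44E5.4 counts were 23, 12, 1536, 109, and then 56, 225, 38 and 124. Both genes were thus read in control, unlike hsp-70, which had 0 reads in control and prg-1, 194 in erh-2, 19 in pics-1 and 5, 65, 7 and 16 in the tofu-6 alleles. Per kilobase, erh-2 had 131 RPKM of hsp-16.41, 64.6 of hsp-16.11, 54.4 of F44E5.4 and 7.0 of hsp-70, and pics-1 had 33.5 RPKM of hsp-16.41 and 1.17 to 7.42 of the others.

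An edgeR quasi-likelihood fit over the 8 TDP2 libraries, with Benjamini-Hochberg adjustment over 22549 features and a threshold of 0.05, called 6 of the 9 genes higher than control on the sense strand in erh-2, where 0.0577% of features were called higher and 0.111% lower. All 9 had an unadjusted p under 0.05. The median difference was 6.27 on the log2 scale, or 5.95 with hsp-70 at its bound, beside -0.1 over all features. The genes past the threshold were hsp-70 (at least 44.7-fold higher, adjusted p = 0.00923), F44E5.5 (6.96 ± 1.57 SE, 0.0169), hsp-16.2 (7.48 ± 1.73, 0.0222), F44E5.4 (5.95 ± 1.46, 0.0366), hsp-16.49 (6.34 ± 1.56, 0.0371) and hsp-16.48 (6.27 ± 1.56, 0.0402). The other 3, hsp-16.41 (5.51 ± 1.42, 0.0549), hsp-16.11 (5.57 ± 1.47, 0.0655) and hsp-16.1 (5.40 ± 1.48, 0.082), had values of similar size. With erh-2 and control at 1 library each, the spread in these tests comes from the tofu-6 alleles and is pooled over all features, and the calls depend on it: 0 of 9 passed with RLE size factors, with scaling to sense reads of protein-coding genes, or without tofu-6 allele it20 or ust95, 3 passed without a filter on low counts, 6 with DESeq2, and 9 with scaling to microRNA reads or without allele ust94 or yt2. The difference between the members' median and that of all features stayed between 6.26 and 6.43 over all these settings. With copies summed the log2 difference in erh-2 was 5.77 ± 1.47 SE for hsp-16 and 6.33 ± 1.51 for the hsp-70 group. The hsp-70 group sum was past the threshold and the hsp-16 sum was not, so the hsp-16 family as a whole was not called.

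The same fit called 0 of the 9 genes in tofu-6, where 0.0887% of features were called higher and 0.173% lower, and 0 in pics-1, where the shares were 0.0177% and 0.0355%. At an unadjusted p under 0.05 there were 8 genes in tofu-6 and 3 in pics-1, all higher, and DESeq2 also called 0 in both. The lowest adjusted p of edgeR belonged to hsp-70 in both, at 0.0746 in tofu-6 and 0.315 in pics-1. The median differences were 3.70 in tofu-6 (3.11 with hsp-70 at its bound, and 2.65 without allele ust94) and 2.56 in pics-1, beside 0.14 and -0.03 over all features. In prg-1 0 of the 9 sense features were called and 0 had an unadjusted p under 0.05, by edgeR, and 0 were called by DESeq2, beside 0.0887% of features called higher and 5.54% lower. A p above the threshold does not show that levels were equal.

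Of the lists in these TDP2 contrasts, the 22 other heat shock genes that passed the filter gave 1 call, aip-1 in erh-2 (11 control reads against 864, log2 difference 6.18 ± 1.48 SE, edgeR adjusted p = 0.0355, past the threshold in 6 of 10 alternatives). None of the CCT, endoplasmic reticulum, mitochondrial or oxidative stress genes, the oocyte, yolk, muscle or cuticle genes was called on the sense strand in any of the 4 contrasts. For prg-1, 5.54% of features of both strands were called lower, and the share of antisense features alone was not worked out. Whether the antisense calls in prg-1 given below stand above that share cannot be told. On the antisense strand rol-6, a collagen gene, was called higher in tofu-6 (adjusted p = 0.0014 by edgeR), but its tofu-6 reads were 1002 in allele yt2, 1 in ust95 and 0 in it20 and ust94, control had 0, and it was not called without allele it20 or ust94 (0.0632 and 0.329) and failed the filter without yt2. The antisense strands of daf-16, the FOXO transcription factor gene, and lev-11, a tropomyosin gene, were lower in prg-1, with 1453 control reads against 55 and 73 against 1 (edgeR adjusted p of 0.0458 and 0.023, and past the threshold in 4 and 3 of 10 alternatives). Among the 22 sperm genes that passed, msp-77, msp-76 and msp-79, which encode major sperm proteins, fell in erh-2, from 122 control reads to 0 (at least 58.8-fold lower, taking 3 reads for the 0), from 137 to 1 and from 132 to 1, with edgeR adjusted p of 0.0153, 0.0366 and 0.0366, past the threshold in 4, 2 and 2 of 10 alternatives. The mitochondrial list, though no gene of it was called, summed to 134 RPM of sense reads in the TDP2 control and 109 RPM in prg-1. It stood at 480 RPM in erh-2, 216 RPM in pics-1 and 277, 712, 486 and 246 RPM in it20, ust94, ust95 and yt2. The summed sperm level was 84.4 RPM in the TDP2 control and 2.23 RPM in erh-2, 5.05 RPM in pics-1 and 7.62, 12.4, 99.8 and 6.25 RPM in the tofu-6 alleles it20, ust94, ust95 and yt2. The ust95 library, with the most sperm reads of the 4 alleles, had the fewest hsp-16 and hsp-70 group reads of the 4, and the part of the one in the other was not tested.

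In all, 5 strains were sequenced both ways, so that a TDP2 library can be set beside the untreated library of its strain. The hsp-70 group was lower after TDP2 in the 3 PICS mutants, at 0.451 of the untreated level in erh-2, 0.0844 in pics-1 and 0.15 in tofu-6(ust94), and did not differ beyond counting error in control (0.733, 0.42 to 1.28) or prg-1 (1.09, 0.621 to 1.91). The hsp-16 sum stood at 0.462 in tofu-6 and 0.279 in pics-1, but at 1.17 (1.09 to 1.25) in erh-2, 2.97 (1.51 to 6.38) in control and 3.25 (1.47 to 7.92) in prg-1. The hsp-16 ratio was above that of the hsp-70 group in 5 of 5 strains, with intervals that overlap in prg-1.

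**Figure D3:**
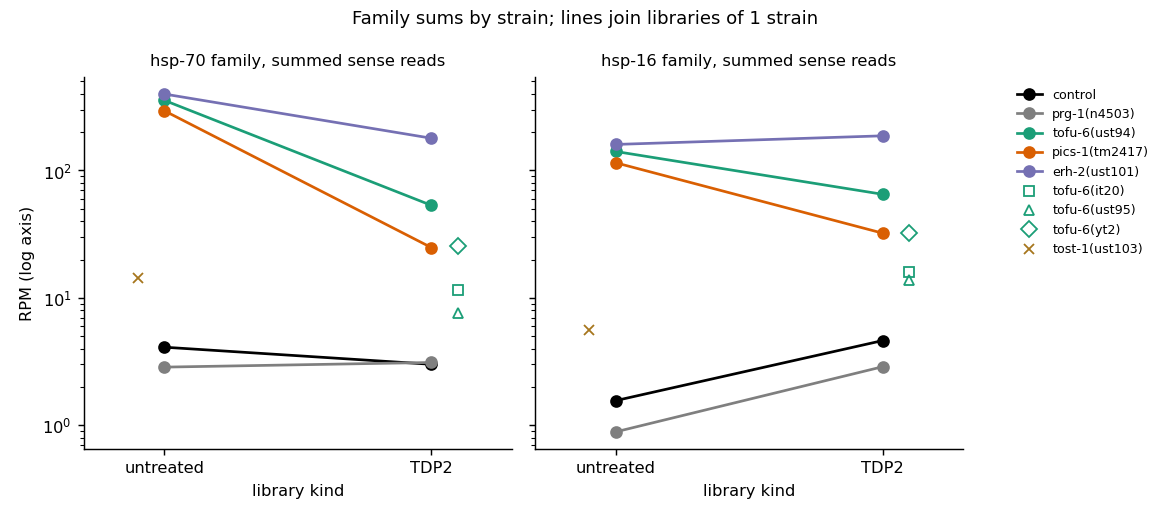
Summed sense RPM on a log axis of the hsp-16 genes and of the hsp-70 group in the untreated and TDP2 libraries, with a line joining the libraries of a strain, open symbols for the tofu-6 alleles sequenced only after TDP2 and a cross for tost-1, sequenced only untreated. The pics-1 lines fall from 115 to 32.2 RPM for hsp-16 and from 294 to 24.8 RPM for the hsp-70 group, and the erh-2 hsp-16 line goes from 160 to 187 RPM.

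A paired edgeR fit over the 10 libraries of the 5 strains, with the strain as a block, called 7 of the 9 genes lower after TDP2 on the sense strand, beside 19.1% of sense features lower and 13.6% higher. The median difference was -1.70 on the log2 scale, beside 0.68 over all features of both strands. That median mixes in antisense features, of which 86.0% were called higher. It and the gaps to it given below therefore do not describe sense features alone. The sense medians of the 10 gene lists lay between -1.28 (yolk) and 0.41 (sperm). F44E5.5 fell by 2.78 ± 0.56 SE (adjusted p = 0.00161 by edgeR) and hsp-70 by 2.55 ± 0.53 (0.00314). In control and prg-1 hsp-70 had 0 reads both untreated and after TDP2, so its fall rests on the pairs of the PICS mutants alone. F44E5.5 stood at 0.237 (0.068 to 0.678) of its untreated RPM in control and at 0.976 (0.458 to 2.05) in prg-1. The falls of F44E5.4, hsp-16.1, hsp-16.2, hsp-16.48 and hsp-16.49 lay between 1.64 and 1.71, with adjusted p of 0.0162 to 0.048. The values of hsp-16.11 (-0.96 ± 0.62, 0.212) and hsp-16.41 (0.84 ± 0.63, 0.281) did not pass. With copies summed the hsp-16 difference was -0.47 ± 0.55 SE (edgeR adjusted p = 0.494), so the family as a whole was not called lower. The hsp-70 group sum fell by 2.05 ± 0.57 (0.0103). Directions here rest on the scaling: with libraries scaled to microRNA reads the median of all features was 2.91 and 1 of the 9 genes, hsp-16.41, was called, higher, and 7 changed sign, while the members' median less that of all features was -2.38 with the usual scaling and -2.03 with that one. Without the strain block 0 of 9 were called, without the pics-1 pair 2, and 4 with scaling to sense reads of protein-coding genes.

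Within the families the shares of some single genes differed between the library types, a pattern picked after its values were seen and not tested. hsp-16.41 made up 0 of 11 hsp-16 sense reads in the untreated control (exact upper limit 28.5%), 16.8% in erh-2, 12.5% in pics-1, 14.5% in tofu-6 and 11.1% in prg-1. After TDP2 it made up 53.5% in control, 44.7% in erh-2, 66.7% in pics-1, 20.4% in tofu-6(ust94) and 10 of 25 reads in prg-1. The share was thus higher after TDP2 in 5 of 5 strains, by 34.1 ± 20.3 percentage points (SD). Over the 3 strains with over 30 reads in each library it was higher by 29.3 ± 24.2 points (SD, n = 3). In prg-1 the exact 95% intervals, 0.281% to 48.2% untreated and 21.1% to 61.3% after TDP2, overlap. In its own strain hsp-16.41 stood at 3.11 (2.69 to 3.6) times its untreated RPM in erh-2, 1.49 (1.19 to 1.87) in pics-1 and 0.647 (0.512 to 0.815) in tofu-6, and went from 0 to 23 reads in control.

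The near-identical and neighbouring genes shifted too. F44E5.4 made up 46.2% of the F44E5.4 and F44E5.5 reads over the 5 untreated libraries on average and 63.3% after TDP2, higher in 5 of 5 strains by 17.1 ± 12 points (SD). hsp-16.1 made up 53.8% of the reads of itself and hsp-16.11 untreated and 40.3% after TDP2, a difference of -13.5 ± 4.69 points that was higher in 0 of 5 strains. hsp-16.48 made up 45.5% and 47.6% of its pair, higher in 1 of 5 strains; over the 3 strains with over 30 reads in each library the direction turned, with 50.3% and 43.6%, a difference of -6.7 ± 5.88 points (SD, n = 3), higher in 0 of 3. The means give equal weight to libraries with very few reads, such as the 4 of hsp-16.1 and hsp-16.11 in the untreated control.

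**Figure D4:**
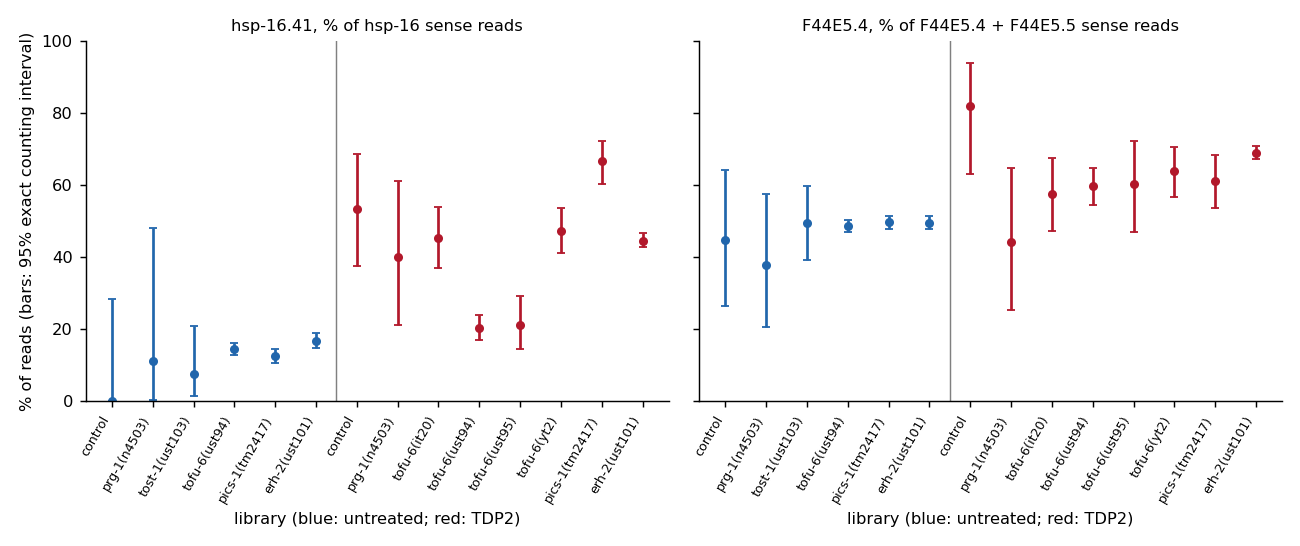
Share of hsp-16 sense reads that belong to hsp-16.41 and share of F44E5.4 and F44E5.5 sense reads that belong to F44E5.4, in percent per library, with exact 95% intervals, untreated libraries in blue and TDP2 libraries in red. In each of the 5 strains sequenced both ways the TDP2 point lies above the untreated point in both panels, and intervals are wide for control and prg-1.

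Antisense reads of the 9 genes behaved differently from the sense reads. Untreated libraries held 0 of them in control, prg-1 and tost-1, 11 in erh-2, 2 in pics-1 and 9 in tofu-6, so that none of the 9 genes had 30 antisense reads over a pair. After TDP2 the 9 genes together had 174 in control, 4 in prg-1, 85 in erh-2, 97 in pics-1, and 74, 22, 78 and 417 in the tofu-6 alleles it20, ust94, ust95 and yt2. Control was thus among the higher libraries on this strand, and the prg-1 library, the lowest, had 3 antisense hsp-16 reads and 1 of the hsp-70 group.

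**Figure D5:**
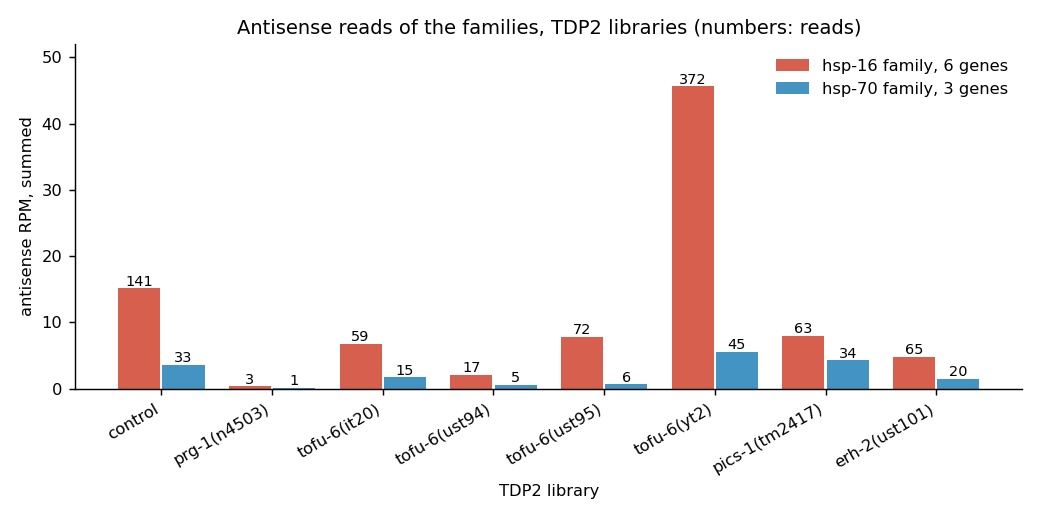
Antisense RPM of the hsp-16 genes and of the hsp-70 group in the 8 TDP2 libraries, as bars from 0 with the read count above each. The yt2 allele of tofu-6 stands highest with 372 and 45 reads, prg-1 lowest with 3 and 1, and control has 141 and 33.

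On the antisense strand 6 of the 9 genes passed the filter on low counts. The shares of features called in the TDP2 contrasts pool both strands. The share of antisense features alone was not worked out, so whether 2 of 6 in prg-1 stands above it cannot be told. In prg-1 the edgeR fit called 2 of these 6 lower than control, beside the 5.54% of all features called lower: hsp-16.49 went from 44 reads to 0 (at least 13.7-fold lower, adjusted p = 0.0175) and hsp-16.48 from 39 to 0 (at least 12-fold lower, 0.0214). Of the other 4, hsp-16.1 went from 24 reads to 0 (edgeR adjusted p = 0.0782), F44E5.4 from 23 to 0 (0.114), hsp-16.11 from 24 to 3 (0.695) and F44E5.5 from 7 to 1 (1.0). The prg-1 count was 0 with RLE size factors, without a filter, with scaling to microRNA reads or to sense reads of protein-coding genes and with DESeq2. The 2 genes called are near-identical copies between which reads could be split, so their calls may not be independent. With copies summed the log2 difference in prg-1 was -4.97 ± 1.51 SE for hsp-16 and -4.39 ± 1.79 for the hsp-70 group. Of these sums only that of hsp-16 was past the threshold. In the PICS mutants 0 of 6 were called by edgeR and 0 had an unadjusted p under 0.05, and DESeq2 also called 0. The tofu-6 alleles gave 15.6 ± 20.2 RPM of hsp-16 antisense reads (SD, n = 4), beside 15.1 RPM in control, with 1 of 4 alleles above it.

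The antisense share of the reads of both strands therefore set the libraries apart in another way than the sense level did. For the 9 genes it was 71.0% in the TDP2 control, 7.14% in prg-1, 1.69% in erh-2, 17.7% in pics-1, and 23.3%, 2.19%, 28.4% and 46.8% in the tofu-6 alleles it20, ust94, ust95 and yt2. Over all protein-coding genes the same share was 59.1%, 39.2%, 33.9% and 70.5% in control, prg-1, erh-2 and pics-1 and 42.2%, 22.9%, 54.5% and 67.0% in the alleles. In control the share was 76.6% (exact 95% interval 69.8 to 82.5) for hsp-16 and 54.1% (40.8 to 66.9) for the hsp-70 group, so that only hsp-16 lay above all protein-coding genes. Both families lay below that share in each of the 7 mutant libraries.

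In the paired fit 5 of the 6 genes were called higher after TDP2 on the antisense strand, where 86.0% of all antisense features were called higher and 2.22% lower, so that the share among the genes is close to that of the background: F44E5.5 by 3.94 ± 1.06 SE on the log2 scale (edgeR adjusted p = 0.00853), hsp-16.11 by 3.33 ± 0.89 (0.00825), hsp-16.49 by 3.82 ± 1.07 (0.0121), hsp-16.1 by 3.71 ± 1.18 (0.0242) and hsp-16.48 by 2.98 ± 0.98 (0.0257). F44E5.4 stood at 2.70 ± 1.09 (0.0577). Without the pics-1 pair 1 was called, without the control pair 2 and without the erh-2 pair 3. Of the other heat shock genes 16 of 17 were called higher on this strand, as were 8 of 8 CCT genes. On the sense strand, where 19.1% of features were called lower and 13.6% higher, 8 of 8 CCT genes were called lower after TDP2. Of 22 other heat shock genes hsp-1 and hsp-110 fell by 1.01 and 1.3 (edgeR adjusted p of 0.0222 and 0.00345). A small heat shock protein gene, hsp-12.3, rose by 2.76 (0.00403). These 2 lower and 1 higher of 22 lie under the shares of all sense features. The values are those of the usual scaling, and scaling to microRNA reads turned the signs of members in this fit.

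The single gene hsp-70 and the hsp-16 sum tracked each other within each library type. This does not extend to the change between types, where the hsp-16 and hsp-70 group sums differed as given above. The hsp-70 gene had 0 reads in control and prg-1 of both types and in tost-1. On the log2(RPM + 0.5) scale hsp-70 and the hsp-16 sum had r = 0.98 over the 6 untreated and r = 0.98 over the 8 TDP2 libraries, given as a description since the untreated values fall in 2 clusters. Among 9046 protein-coding sense features with 100 reads or more that are not among the 9 genes, the 5 most like hsp-70, by the lower of the r values in the 2 library types, were aip-1 (0.94 untreated, 0.94 TDP2), cee-1 (0.94 and 0.93), W03F9.1 (0.92 and 0.94), ekl-7 (0.95 and 0.92) and F44E2.3 (0.97 and 0.92). For the hsp-16 sum they were dnj-13 (0.98 and 0.95), which encodes a DnaJ co-chaperone of HSP70, W03F9.1 (0.98 and 0.94), F42A10.5 (0.94 and 0.95), toc-1 (0.94 and 0.94) and pdk-1 (0.94 and 0.94). The likeness is one of pattern, not of size: dnj-13 had 101 reads in the untreated control, 373 in erh-2, 487 in pics-1, 449 in tofu-6, 163 in tost-1 and 116 in prg-1. The genes compared share their libraries, with the depth and the composition shifts given above, whose part in the likeness was not tested.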

How the data were processed

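Small RNA libraries of 17 to 30 nt were analysed from the authors' deposited tables of read counts per gene and strand; Bowtie2, a read aligner, is named in the submitters' processing notes, and its version, the genome build and the handling of reads with several matches were not stated in the labels or headers at hand. The values are whole-number counts with no normalization. Gene positions came from the WBcel235 annotation (Ensembl), in which 44852 of 45510 gene IDs were found; transcript rows of a gene were summed. Reads in no gene class (3 to 27 per library) were left out.

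RPM is reads per 1000000 assigned reads. Untreated libraries, 1 per strain, were compared by ratios with exact 95% intervals and no test; called means at least 4-fold among features with 30 reads over the pair, a library at 0 being taken as 3 reads. TDP2 libraries were fitted with edgeR 4.0.16 (R 4.3.3, TMM, quasi-likelihood, genotype, 3 residual degrees of freedom) after a filter (10 reads in any library and 30 in total); the prior degrees of freedom were infinite, so all features shared 1 trend of spread. The paired fit took 21837 features, with 4 residual degrees of freedom; pairs come from the strain name in the labels. The threshold was an adjusted p of 0.05. Alternatives were RLE factors, DESeq2 1.42.0, no filter, scaling to microRNA or protein-coding sense reads, summed copies, no block and each replicate or pair left out. Background shares of the paired fit are given per strand, chosen after the values were seen, and those of the TDP2 contrasts pool both strands. Fits were tested on simulated data. All 9 members on both strands are named; of the 10 gene lists (150 genes, 1 not found), genes called in a TDP2 contrast or, where none was, the most read; list genes past 4-fold or called in the paired fit were named after their values were seen. Members and lists were chosen with earlier results of these data known.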

Additional observations from a re-analysis of the deposited data

Results flagged for a closer look

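Among the 4 tofu-6 TDP2 libraries the ust94 allele stood apart for hsp-16.1 sense reads, at 10.7 RPM with the nearest allele at 2.7 RPM. The yt2 allele stood apart on the antisense strand, at 10.3 RPM for hsp-16.1 (nearest 1.14 RPM), 13.9 RPM for hsp-16.11 (nearest 1.02 RPM) and 45.6 RPM for the hsp-16 sum (nearest 7.84 RPM). Groups of 4 are marked this way by chance about 1 time in 20, and hsp-16.1 and hsp-16.11 are near-identical copies between which the counting could split reads.

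For 3 genes every library of tofu-6(ust94), pics-1 and erh-2 had fewer sense RPM after TDP2 than untreated and every library of control and prg-1 had more, on few reads: hsp-16.1 went from 2 to 5 in control and from 2 to 4 in prg-1, hsp-16.48 from 1 to 3 and from 3 to 4, and F44E5.4 from 13 to 23 and from 11 to 12. The 95% interval of each of these 6 ratios spans 1, so the higher values in control and prg-1 were not distinguishable from no change at this depth. The mean change was -16.76 RPM against 0.259 RPM for hsp-16.1, -15.01 against 0.173 for hsp-16.48 and -105.8 against 0.466 for F44E5.4. This grouping of the strains was set after their values were seen, and the difference was not tested.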

How the results depend on the processing

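Counts of features called in the TDP2 contrasts moved strongly with the scaling. In tofu-6 59 features were called, and 0 with RLE size factors, 6 with scaling to microRNA reads, 0 with scaling to protein-coding sense reads, 10 with DESeq2 and 4 to 101 with an allele left out; members called on the sense strand were 0, and 0 to 1 with an allele left out. In pics-1 there were 12 features, and 0, 5 and 0 with those 3 scalings and 2 to 45 with an allele left out. In erh-2 there were 38, and 0 with RLE, 21 without a filter, 5662 with microRNA scaling, 0 with protein-coding sense scaling and 4 to 87 with an allele left out; the 6 members became 0 with RLE, 3 without a filter, 0 with protein-coding sense scaling and 0 to 9 with an allele left out. In prg-1 there were 1270, and 434 with RLE, 8 with microRNA scaling, 0 with protein-coding sense scaling and 670 to 1475 with an allele left out; the 2 antisense members became 0 with RLE, without a filter, with either other scaling and with DESeq2, and 0 to 2 with an allele left out. The prior degrees of freedom were 11.94 with RLE, 2.853 with protein-coding sense scaling and 27.45 without allele ust94, and infinite in the other edgeR settings of the TDP2 fit.

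In the paired fit the 7 sense members became 1 with microRNA scaling, 4 with protein-coding sense scaling, 0 with no replicate block (strain pairing left out) and 2 to 8 with a pair left out; the 5 antisense members became 1 to 6. Under microRNA scaling the sense log2 differences changed sign, to 1.05 for hsp-16.1, 0.88 for hsp-16.2, 1.69 for hsp-16.11, 1.08 for hsp-16.48, 0.78 for hsp-16.49, 0.43 for hsp-70 and 0.54 for F44E5.4, and with copies summed the hsp-16 value that holds hsp-16.41 was -0.47. That scaling moved the median of all features to 1.89 in prg-1, 2.79 in erh-2, 1.48 in pics-1 and 1.89 in tofu-6, since microRNA reads made up 8.35% of the TDP2 control library and 0.810% to 4.10% of the mutant ones. It also turned the sign of 5 of 6 antisense members in erh-2, 4 in pics-1 and 5 in tofu-6; no other setting turned more than 2, and none of these was called.

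In untreated libraries a 2-fold mark in place of 4-fold gave 2255 features called in erh-2 (433 at 4-fold), 3498 in pics-1 (730), 3424 in tofu-6 (755), 1293 in tost-1 (176) and 1215 in prg-1 (383), with 2 members in tost-1 in place of 0; a minimum of 100 reads gave 170, 254, 293, 58 and 73. Per microRNA read the hsp-16 and hsp-70 sums were 26.9 and 25.7 times control in tofu-6, 28.7 and 27.8 in pics-1 and 45.5 and 42.8 in erh-2; per protein-coding sense read the hsp-70 sum was 50.7, 41.9 and 63.5 times. Of all counts and ratios 160 kept within their limits and 66 did not; of single members 388 kept direction and side of the threshold, 22 passed it newly, 79 lost it and 8 changed sign, leaving aside the antisense members of the PICS mutants, whose sign changes are given above, and the sense members in prg-1. Apart from the microRNA composition the cause was not tested.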
